A study of Mus musculus with 4 samples.

Results

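The ectodysplasin and NF-kB pathway was followed here through 8 genes, namely the ligand gene Eda, its receptor gene Edar, the NF-kB subunit genes Nfkb1, Nfkb2, Rela and Relb, and the inhibitor genes Nfkbia and Nfkbib. All probe sets that carried exactly 1 of these symbols in the platform annotation were taken, which gave 11 of the 12488 probe sets on the array, for 6 of the 8 genes. Eda had 3 probe sets, Nfkbia, Rela and Relb had 2 each, and Nfkb2 and Nfkbib had 1 each. No probe set was named for Edar or Nfkb1 in the annotation used, so the receptor and the p105 precursor were not analysed here.

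The tissue was the mandibular molar tooth region of NMRI mouse embryos at embryonic day 14, about the cap stage, kept for 24 h in organ culture. One group of explants received 1 µM TCDD (2,3,7,8-tetrachlorodibenzo-p-dioxin, a dioxin that activates the aryl hydrocarbon receptor), which had been dissolved in DMSO. The other group received DMSO, given as 0.65% of the medium. Each group had 2 arrays, each from a pool of about 60 explants from 3 experiments, so the arrays of a group differ between pools and not between embryos. The medium of all 4 cultures was DMEM with fetal calf serum, and the label of DMSO replicate 2 alone adds ascorbic acid. The RNA put into labelling was 11 µg for TCDD replicate 1 and 8 µg for TCDD replicate 2, against 11 and 7 µg for DMSO replicates 1 and 2. The explants hold epithelium, mesenchyme and other cells together, and in such bulk RNA fewer cells of a type and less RNA per cell cannot be told apart.

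Ectodysplasin is a ligand of the tumour necrosis factor family. Its receptor acts through the adaptor Edaradd and the IkB kinase complex, which marks the IkB inhibitors for destruction and so frees NF-kB dimers to enter the nucleus. In the mouse tooth germ Eda is known from the outer dental epithelium and Edar from the enamel knot, the epithelial signalling centre of the cap stage, and loss of either gives small molars with shallow cusps. NF-kB also switches on genes of its own circuit, among them Nfkbia and Nfkb2, so these transcripts are common readouts of its activity, whereas the step that activates it is a change of protein. RelB, the product of Relb, has been reported to bind the aryl hydrocarbon receptor in other cell types.

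The upstream windows of both feedback genes and of the ligand gene are printed because they show where NF-kB and the receptor for dioxin could be recognised near the start of the genes whose transcripts were measured. They cover the 250 bases before the transcription start (RefSeq, GRCm38.p6) and run 5′ to 3′ on the strand of the gene. Capitals mark matches to the NF-kB consensus motif in Nfkb2 and Nfkbia, and in Eda the core motif of the aryl hydrocarbon receptor, GCGTG, here as its reverse complement CACGC. Both strands were searched.
Nfkb2, first of 3 annotated starts, chr19:46304487-46304736, plus strand: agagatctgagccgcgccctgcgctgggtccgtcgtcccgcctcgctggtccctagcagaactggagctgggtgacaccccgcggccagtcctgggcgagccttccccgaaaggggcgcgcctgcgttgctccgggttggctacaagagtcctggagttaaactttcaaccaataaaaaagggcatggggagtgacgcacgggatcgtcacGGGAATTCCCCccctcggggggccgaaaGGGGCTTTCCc
Nfkbia, chr12:55492648-55492897, minus strand: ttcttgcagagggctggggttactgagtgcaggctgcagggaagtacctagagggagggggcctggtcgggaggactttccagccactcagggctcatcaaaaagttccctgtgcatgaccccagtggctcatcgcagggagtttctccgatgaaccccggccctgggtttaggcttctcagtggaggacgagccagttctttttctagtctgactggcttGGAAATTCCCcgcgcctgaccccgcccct
Eda, chrX:99975356-99975605, plus strand: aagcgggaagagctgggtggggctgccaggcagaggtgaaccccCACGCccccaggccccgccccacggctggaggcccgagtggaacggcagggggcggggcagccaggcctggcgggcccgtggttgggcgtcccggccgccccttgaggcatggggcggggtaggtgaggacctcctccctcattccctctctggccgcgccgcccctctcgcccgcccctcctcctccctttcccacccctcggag

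Of the 8 genes, 6 had an entry in the promoter table, with 8 windows in all, while Nfkb1 and Relb had none there. The NF-kB consensus matched in 4 of these windows, which belong to Nfkb2 and Nfkbia, and in 7.25% of the 32851 promoters of the same length. In the Nfkb2 window shown, GGGAATTCCC began 39 bases before the start and GGAATTCCCC, which overlaps it, 38 bases before it. A further match, GGGGCTTTCC, began 11 bases before the start. Such a window with 2 or more match positions, overlapping ones included, made up 1.03% of all promoters. The string GGGACTTTCC, the site of the immunoglobulin kappa enhancer, lay 225 bases before the third annotated start of Nfkb2, and on either strand it was found in 0.14% of promoters. In Nfkbia, GGAAATTCCC began 29 bases before the start. The core motif GCGTG was present in 4 of the 8 windows, those of Eda and Edar and the later starts of Nfkb2, against 28.2% of all promoters. A match is a string of letters and not a shown binding site.

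Exposure to TCDD could be read on the same arrays. Cyp1a1 and Cyp1b1, cytochrome P450 genes that the aryl hydrocarbon receptor switches on, were 2 of the 4 probe sets past a Benjamini-Hochberg adjusted p of 0.05 in limma among 5783 tested (0.0692%). Their log2 changes were 2.88 ± 0.22 and 2.28 ± 0.21 (SE). Both DMSO signals of Cyp1a1, 14.7 and 12.7, were restored from spreadsheet dates and lie under the offset. Signals are MAS5 units with a target of 100, and all differences are TCDD minus DMSO on the log2(signal + 16) scale, which understates changes of dim probe sets. Only probe sets with a mean of at least 50 over the 4 arrays were tested. Markers of the labelled tissue were present. Of the dental epithelium list 9 of 11 genes with a probe set reached the filter and of the dental mesenchyme list 11 of 13. The probe sets of Krt5 and Krt14, keratins of basal epithelium, were at most 10.8 on every array. Summed over the epithelial list the signal was 3233 and 3487 on the TCDD arrays, against 2344 and 3060 on the DMSO arrays, and over the mesenchymal list it was 3229 and 4087 on the TCDD arrays, against 3222 and 3957 on the DMSO arrays. Of the 9 epithelial genes above the filter, 8 had a log2 difference above 0, against 51.1% of all tested probe sets. The groups did not overlap in 3 of the 9 (33.3%), near the 29.8% of all tested probe sets. Of the 11 mesenchymal genes above the filter, 6 had differences above 0 and 5 below it, and 1 (9.09%) did not overlap. The desmosomal gene Dsp, with 1379 and 1567 in TCDD against 936 and 1347 in DMSO, and Perp, with 757 and 738 in TCDD against 393 and 592 in DMSO, took most of the epithelial sum's difference. Cdh1, which encodes E-cadherin, was lower without overlap, with 101.2 and 120.5 in TCDD against 170.3 and 141.1 in DMSO. The part of tissue make-up in the values that follow was not tested.

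In the ectodysplasin and NF-kB pathway no probe set differed between TCDD-treated and DMSO-treated tooth germs past the test. Of the 11 probe sets 5 reached the filter, for Eda, Rela, Nfkbia (both) and Nfkbib, and 0 of these 5 passed limma's adjusted p, or an unadjusted p under 0.05, which 2.59% of all tested probe sets reached. The log2 difference was above 0 in 2 and below 0 in 3, with a median of -0.08, where the median over all tested probe sets was 0.01 and 51.1% were above 0. The 5 absolute differences were at most 0.25, with a median of 0.11, against 0.15 over all tested probe sets. Standard errors lay between 0.19 and 0.25, and the limma adjusted p was 0.997 for each. Over the 5 probe sets, the 95% intervals reached from -0.78 to 0.72 on the log2 scale, that is from a ratio of 0.581 to one of 1.64 in signal + 16. These bounds are no limit of detection. The smallest absolute difference that passed the adjusted p among all tested probe sets was 1.55, and Tiparp, another target of the aryl hydrocarbon receptor, did not pass with 1.53 (limma adjusted p = 0.167).

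**Figure D1:**
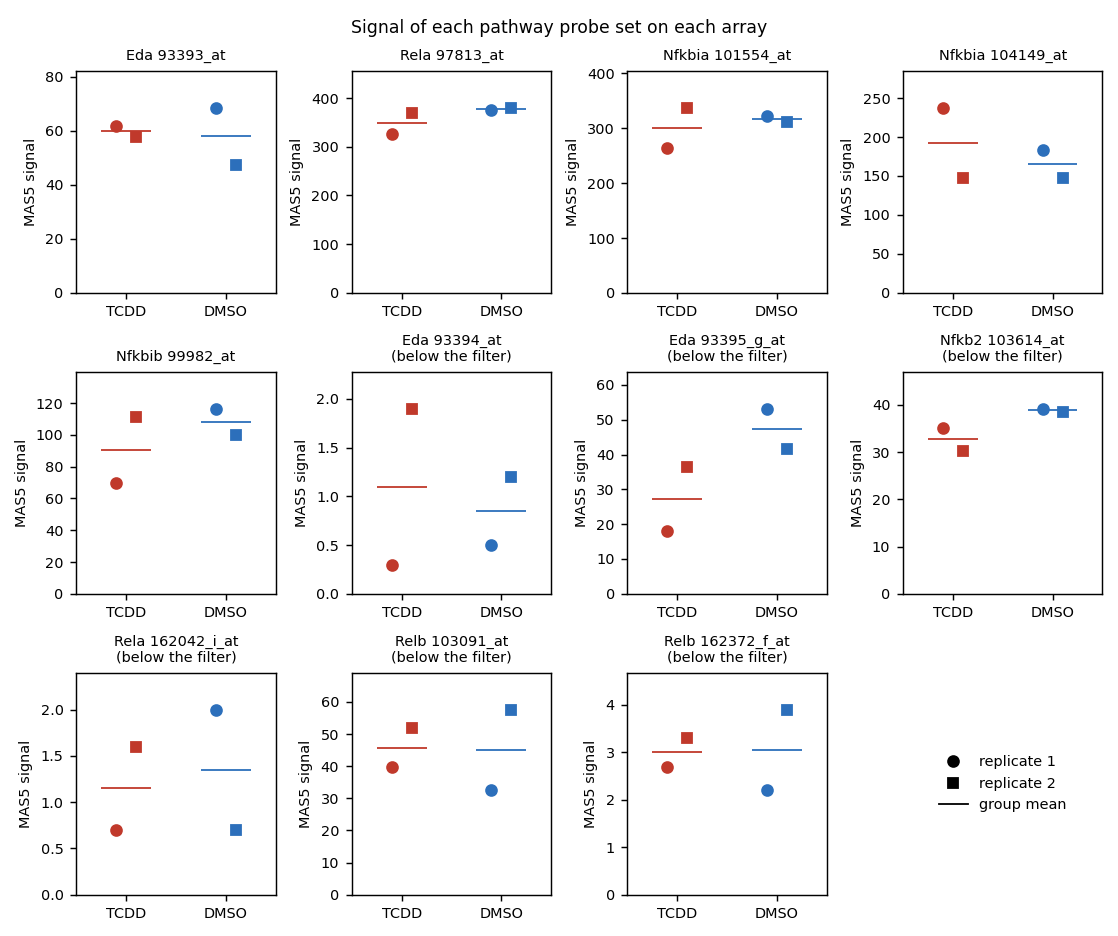
MAS5 signal (vertical axis, from 0, with its own range in each panel) of the 11 probe sets on the TCDD and DMSO arrays, with circles for replicate 1, squares for replicate 2 and lines for group means. The TCDD arrays lay below both DMSO arrays for Rela 97813_at, Eda 93395_g_at and Nfkb2 103614_at, and the groups overlapped in the other 8 panels.

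For Eda, the ligand, 93393_at was the brightest probe set and alone reached the filter. Its signals were 61.7 and 57.8 on the TCDD arrays, against 68.5 and 47.4 on the DMSO arrays. Both TCDD values lay between the DMSO values, so the groups overlapped. The means were 59.8 ± 2.76 in TCDD and 58 ± 14.9 in DMSO (SD, n = 2 each). The log2 difference was 0.05 ± 0.24 (SE), with a 95% interval of -0.49 to 0.58 in limma, and 17.6% of tested probe sets had a smaller absolute difference. DMSO replicate 2, the array whose label lists ascorbic acid, was the lowest of the 4, and without it the difference was -0.16, while without DMSO replicate 1 it was 0.26.

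The other Eda probe sets were below the filter, and 93395_g_at did not share that overlap. Its signals were 18.1 and 36.5 on the TCDD arrays, against 53.2 and 41.6 on the DMSO arrays. Here both TCDD arrays were below both DMSO arrays, with TCDD replicate 1 the lowest, and that value was among the cells restored from a spreadsheet date. The log2 difference was -0.58, the largest in absolute size of the 11 probe sets. Fitted without the filter over all 12422 probe sets, it had a 95% interval of -1.31 to 0.16 and a limma adjusted p of 0.979. The third, 93394_at, had signals of 0.3 and 1.9 in TCDD, against 0.5 and 1.2 in DMSO. So 93395_g_at was lower in all 4 TCDD-DMSO array pairs, as were 26.2% of probe sets below the filter. The brightest Eda probe set, with a difference of 0.05, was higher in 2 of 4 pairs. All signals of 93394_at lay far under the offset of 16, which holds its difference, 0.02, small whatever the transcript does. That probe set therefore cannot show whether the ligand changed.

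Rela encodes p65, the subunit with the transactivation domain in the most common NF-kB dimer. Its probe set 97813_at read 326.9 and 369.5 on the TCDD arrays, against 374.9 and 380.4 on the DMSO arrays. The TCDD arrays lay below the DMSO arrays without overlap, as they did for 14.6% of tested probe sets, while 15.3% were higher without overlap. Of the 5 tested members 1 lay below in this way and 0 above, close to that background. The closest pair, TCDD replicate 2 and DMSO replicate 1, differed by -0.02 on the log2 scale. The means were 348 ± 30.1 in TCDD and 378 ± 3.89 in DMSO (SD, n = 2 each), a log2 difference of -0.11 ± 0.19 (SE) with a 95% interval of -0.53 to 0.30. In this gene the 4 arrays spanned the narrowest range of the pathway, the highest signal being 1.16 times the lowest. The other Rela probe set, 162042_i_at, had signals of 0.7 and 1.6 in TCDD, against 2 and 0.7 in DMSO.

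Nfkbia, which encodes IkB-alpha and is itself induced by NF-kB, had both probe sets in the fit. At 101554_at the signals were 263.7 and 337.6 on the TCDD arrays, against 322 and 311 on the DMSO arrays. One TCDD array was below and the other above both DMSO arrays. The means were 301 ± 52.3 in TCDD and 317 ± 7.78 in DMSO (SD, n = 2 each), a log2 difference of -0.08 ± 0.20 (SE) with a 95% interval of -0.52 to 0.36. At 104149_at they were 237.7 and 147.9 on the TCDD arrays, against 183.4 and 147.5 on the DMSO arrays. Here TCDD replicate 1 was the highest of the 4, whereas at the first probe set it was the lowest. The means were 193 ± 63.5 in TCDD and 165 ± 25.4 in DMSO (SD, n = 2 each), a log2 difference of 0.18 ± 0.25 (SE) with a 95% interval of -0.37 to 0.72. The probe sets of this feedback gene thus had differences of opposite sign, and without TCDD replicate 1 each had the other sign, 0.09 at 101554_at and -0.14 at 104149_at.

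Nfkbib encodes IkB-beta, an inhibitor that binds the same dimers. Its signals were 69.8 and 111.3 on the TCDD arrays, against 116.5 and 100.1 on the DMSO arrays. The lower group mean in TCDD, 90.6 ± 29.3 against 108 ± 11.6 in DMSO (SD, n = 2 each), rested on replicate 1, as TCDD replicate 2 lay between the DMSO arrays. The log2 difference was -0.25 ± 0.24 (SE), with a 95% interval of -0.78 to 0.29, and 74.3% of tested probe sets had a smaller absolute difference. Without TCDD replicate 1 it was 0.04 and without TCDD replicate 2 it was -0.53.

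**Figure D2:**
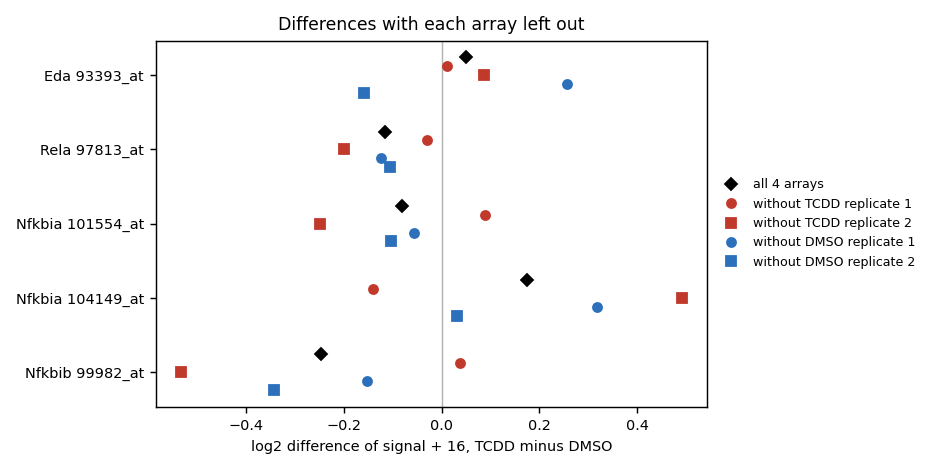
Log2 difference of signal + 16, TCDD minus DMSO (horizontal axis), of the 5 tested probe sets with all 4 arrays (diamonds) and with each array left out. Without TCDD replicate 1 the values of both Nfkbia probe sets and of Nfkbib crossed 0, while Rela stayed between -0.20 and -0.03.

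The subunit genes of the alternative NF-kB branch were below the filter. Nfkb2 encodes p100, which holds RelB in the cytoplasm until it is processed to p52. Its signals were 35.1 and 30.3 on the TCDD arrays, against 39.2 and 38.5 on the DMSO arrays, so the groups did not overlap. The means were 32.7 ± 3.39 in TCDD and 38.9 ± 0.495 in DMSO (SD, n = 2 each), and the log2 difference was -0.17, with a 95% interval of -0.79 to 0.44 in the limma fit without the filter. Among probe sets below the filter 26.2% were lower in TCDD without overlap and 6.88% higher, and of the 6 dim members 2 were lower without overlap, Nfkb2 and Eda 93395_g_at, and 0 higher.

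Relb had signals of 39.8 and 51.8 on the TCDD arrays, against 32.5 and 57.6 on the DMSO arrays, at 103091_at. The DMSO arrays spanned both TCDD arrays, and the replicate 2 array was the higher in each group. The means were 45.8 ± 8.49 in TCDD and 45.1 ± 17.7 in DMSO (SD, n = 2 each), and the log2 difference was 0.04, with a 95% interval of -0.67 to 0.76 in the limma fit without the filter. The dim probe set 162372_f_at read 2.7 and 3.3 in TCDD, against 2.2 and 3.9 in DMSO, in the same order by array. All 4 of these values had been stored as dates.

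**Figure D3:**
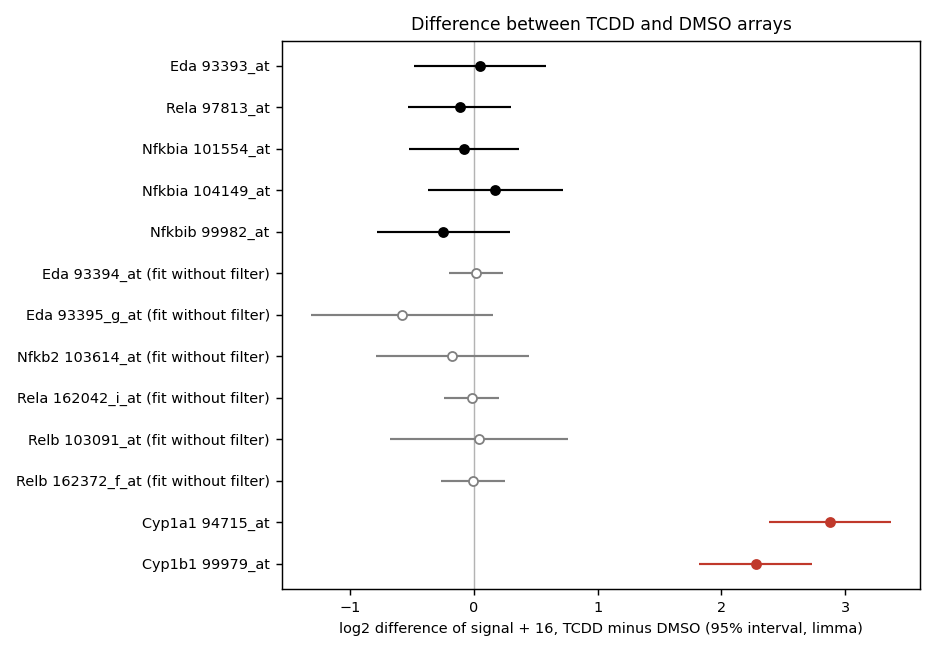
Log2 difference of signal + 16, TCDD minus DMSO (horizontal axis), with 95% intervals from limma, for the 5 tested pathway probe sets (filled), the 6 below the filter in a fit without it (open) and, for scale, Cyp1a1 and Cyp1b1 (red). Every pathway interval includes 0. The dimmest probe sets, whose intervals are short, had signals well under the offset of 16.

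At 10 of the 11 pathway probe sets, all but that of Nfkb2, the pools of at least 1 group differed from each other by more than the group means did on the log2 scale. The share over all probe sets was not computed, so this count does not set the pathway apart. Nfkbia 104149_at was higher in replicate 1 than in replicate 2 of both groups, with 237.7 and 147.9 in TCDD and 183.4 and 147.5 in DMSO. Relb 103091_at had the opposite order in both groups. The log2 difference of replicate 2 minus replicate 1 was -0.63 in TCDD and -0.29 in DMSO for Nfkbia 104149_at, and 0.28 in TCDD and 0.60 in DMSO for Relb. For Nfkbib these were 0.57 in TCDD and -0.19 in DMSO, and for Nfkbia 101554_at 0.34 in TCDD and -0.05 in DMSO, without a common sign. More RNA was put into labelling for replicate 1 of both groups, and the part of this in the values was not tested.

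The likeness of other genes was sought for Nfkbia 104149_at, the tested member with the widest range over the 4 arrays, 0.63 on the log2 scale. Among 5258 other tested probe sets of 1 gene, Snx2 (96331_at), a sorting nexin gene, Hnrnpk (94041_at), which encodes an RNA-binding protein, and Tmem109 (160378_at) were nearest. Their root mean square distances over the 4 arrays, each gene centred on its own mean, were 0.02, 0.03 and 0.03 on the log2 scale. Snx2 read 305.3 and 192.3 in TCDD, against 244.8 and 187.9 in DMSO. With 4 arrays, 115 probe sets lay within a distance of 0.1, so this closeness is a description only.

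Other genes of the signalling chain did not pass the test either. The list held 30 genes, of which 22 had a probe set and 14 reached the filter at their brightest one. Of the 8 below the filter, 1 had a difference above 0 and 7 below it, a share not computed over all dim probe sets. Of the 14 above it, 9 had a log2 difference above 0 and 5 below it. Among these, 0 passed limma's adjusted p or an unadjusted p under 0.05, and the median was 0.09 (range -0.29 to 0.48). The groups did not overlap in 4 of the 14 (28.6%), against 29.8% of all tested probe sets. The adaptor Edaradd and the kinases Chuk and Map3k14 were not analysed here.

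Named by the absence of overlap between groups, 3 genes of the chain were higher in TCDD and 1 was lower. Tank, a TRAF-binding regulator of NF-kB and interferon signalling, had signals of 126.7 and 89 on the TCDD arrays, against 69.4 and 74.1 on the DMSO arrays. Its log2 difference of 0.48 ± 0.23 (SE) exceeded that of 96.1% of tested probe sets in absolute size. Tbk1, the IkB-kinase relative that binds Tank, had 139.4 and 120.2 in TCDD, against 97.4 and 107 in DMSO, a log2 difference of 0.30 ± 0.21 (SE). Traf5, an adaptor of tumour necrosis factor receptors, had 66.4 and 56 in TCDD, against 51.7 and 44.8 in DMSO, a log2 difference of 0.26 ± 0.23 (SE). All 3 had a limma adjusted p of 0.997.

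Ikbkg encodes NEMO, the regulatory subunit of the IkB kinase, and its human gene is mutated in ectodermal dysplasia with immunodeficiency. At 94196_at its signals were 44.4 and 61 on the TCDD arrays, against 70.3 and 64.9 on the DMSO arrays, a log2 difference of -0.29 ± 0.24 (SE). Its other probe set, 103216_f_at, read 61.8 and 56.3 in TCDD, against 58.9 and 52.7 in DMSO, with overlap and a difference of 0.06. Traf4, another adaptor of the TRAF family, likewise differed by 0.10 at 162482_at and by -0.38 at 100005_at. Traf6, a TRAF protein that links Edaradd to the kinases, had 96.3 and 76.1 in TCDD, against 68.6 and 76.9 in DMSO, at its brightest probe set. The difference there was 0.20, while the dim Traf6 probe sets 104190_at and 98874_at had -0.20 and -0.41. The groups overlapped at each.

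Of 20 listed genes that respond to ectodysplasin or NF-kB in skin appendages or teeth, 14 had a probe set and 11 reached the filter. No probe set was named for Fgf20, Dkk4, Cxcl11, Sostdc1, Foxi3 or Pthlh, so transcriptional output of the pathway could be followed only in part. The 3 genes below the filter had differences below 0, and the share over all dim probe sets was not computed. The 11 above the filter showed 4 differences above 0 and 7 below it. The median was -0.04, 0 passed limma's adjusted p and 2 of the 11 had an unadjusted p under 0.05, which 2.59% of all tested probe sets reached. The groups did not overlap in 3 (27.3%), near the 29.8% of all tested probe sets. The differences ranged from -1.19 to 0.56. The lowest was that of Cdkn1a, which encodes the cell cycle inhibitor p21 and had 75.4 and 107.2 in TCDD, against 559.1 and 85.7 in DMSO, so that DMSO replicate 1 stood far apart and the groups overlapped. Fst, which encodes follistatin, had 164.6 and 181.4 in TCDD, against 95.2 and 131 in DMSO. Bmp4 (93456_r_at), a signal of dental mesenchyme and enamel knot, had 296.1 and 207 in TCDD, against 204.4 and 161.3 in DMSO, while its other probe set 93455_s_at overlapped between groups. Dkk1, a secreted Wnt antagonist, had 27 and 50.5 in TCDD, against 67.6 and 75 in DMSO. Shh, an enamel knot signal known as a target of the Edar pathway, had 60.8 and 184.2 in TCDD, against 79.5 and 162.1 in DMSO. The groups overlapped, and replicate 2 was the higher in each.

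Of 30 listed general NF-kB targets, mostly inflammatory and survival genes, 28 had a probe set and only 12 reached the filter. Of the 16 below the filter, 6 had differences above 0 and 10 below it, a share not computed over all dim probe sets. The 12 above the filter had 7 differences above 0, 5 below it and a median of 0.01. Of these 0 passed limma's adjusted p, 1 of the 12 had an unadjusted p under 0.05, and 2 (16.7%) did not overlap between groups, against 2.59% and 29.8% of all tested probe sets. Ccl2, which encodes a monocyte-attracting chemokine, had 95.3 and 87.4 in TCDD, against 52 and 39.6 in DMSO, so its log2 difference was 0.80 ± 0.23 (SE), and limma's adjusted p was 0.997. Cxcl1, another chemokine gene known as a target, had 44.8 and 51.2 in TCDD, against 55.7 and 57.2 in DMSO, a difference of -0.18. The 95% interval of Cxcl1 was -0.69 to 0.33 in limma, and its dim second probe set, 95349_g_at, overlapped between groups with a difference of -0.01. Cxcl5, also a chemokine gene above the filter, differed by 0.003 with overlap.

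Macrophage markers bright enough to test also had differences above 0, some of them close to 0 and none past the adjusted test. Of 14 listed, 9 reached the filter and all 9 had differences above 0, against 51.1% of all tested probe sets, with a median of 0.28. Cd68, Cd14 and Tyrobp differed by only 0.06, 0.05 and 0.07, and each was higher in 2 of 4 array pairs. Of the 9, 0 passed limma's adjusted p and 3 had an unadjusted p under 0.05, while 4 (44.4%) did not overlap between groups, against 2.59% and 29.8% of all tested probe sets. The signal summed over the whole list was 1115 and 1100 in TCDD, against 954 and 831 in DMSO. Of 5 below the filter, Adgre1, which encodes the F4/80 antigen, was at most 18.9 and Ptprc, the common leukocyte antigen, at most 10 on any array. Of these 5, 3 had differences below 0, among them Adgre1 with -0.28. The dim second probe sets of C1qb (162276_i_at) and Lyz2 (162309_at) were lower in TCDD in all 4 array pairs, as were 26.2% of probe sets below the filter. Their differences were -0.76 and -0.31, while the bright ones had 0.53 and 0.59. Lyz2 162309_at read only 1 and 0.7 in TCDD, against 9.3 and 1.3 in DMSO, all under the offset. Of the 4 values of C1qb 162276_i_at, 3 had been stored as dates. The part of macrophages in the Ccl2 values was not tested.

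Relatives of ectodysplasin and its receptor had 21 of 26 listed genes with a probe set, of which 6 reached the filter. Among the 15 below the filter, 3 had differences above 0 and 12 below it, and the share over all dim probe sets was not computed. In the 6 above the filter, differences were above 0 in 3 and below 0 in 3, with a median of 0.00. Among these, 0 passed limma's adjusted p or an unadjusted p under 0.05. Ltbr, the lymphotoxin beta receptor of the alternative NF-kB branch, had 72 and 61.4 in TCDD, against 57.1 and 52.5 in DMSO. Tnfrsf18, a receptor known from T cells, had 53.9 and 51.6 in TCDD, against 83.1 and 54.6 in DMSO, where DMSO replicate 1 stood apart. The groups of these 2 genes did not overlap (33.3% of 6, near the 29.8% of all tested probe sets).

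**Figure D4:**
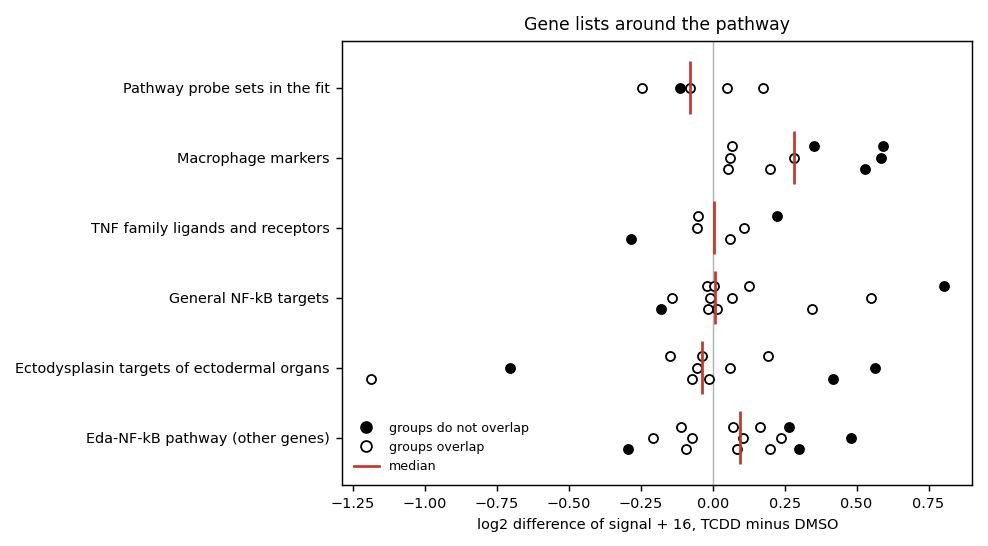
Log2 difference of signal + 16, TCDD minus DMSO (horizontal axis), of each gene above the filter in 5 lists and of the 5 tested pathway probe sets (top), with red lines for medians. Filled points are genes whose groups do not overlap. The medians of the 4 signalling lists lay between -0.04 and 0.09 and that of macrophage markers was 0.28.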

How the data were processed

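RNA from 4 pools of cultured molar explants was hybridised to murine U74v2A arrays, 2 with TCDD and 2 with DMSO. Scanning and analysis used Affymetrix Microarray Suite 5.0, per the labels, and MAS5, per the submitters' processing notes. The deposited values are hybridisation intensity signals on a linear scale, scaled by the authors to a target of 100. Probe-level data and detection calls were not used here, and the genome build is not given in the sources used here. The number of arrays limits the precision.

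Of 49952 deposited cells, 18515 (37.1%), of which 9 of 44 in the pathway, held a spreadsheet day serial and were turned back to day.month. The mean with 2% trimmed at each end was then 100.05 on each array. Symbols came from the platform annotation, where 10833 probe sets have 1 symbol, 396 several and 1193 none, beside 66 controls.

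The limma package (3.58.1, R 4.3.3) fitted the differences by lmFit and eBayes with a trend (10.8 total degrees of freedom) on log2(signal + 16), over 5783 probe sets with a mean of at least 50, and adjusted by Benjamini-Hochberg over all of them at 0.05. The procedure was tested on simulated data whose noise was independent between arrays. That run checked the code and is not used here as evidence on the pathway. An exact permutation test was not run, as 2 arrays against 2 cannot reach 0.05. A listed gene was represented by its brightest probe set. Every pathway probe set is named, and from the lists the genes without overlap between groups and with the largest differences, to a fixed number. Traf4, Traf6, Shh, Cdkn1a, Krt5, Krt14, Adgre1, Ptprc, Cxcl5, Cd68, Cd14 and Tyrobp were chosen after their values were seen. Pathway members and lists were chosen with earlier results of these data known. Alternatives covered offset, filter, quantile normalization, date cells set to 16, variance trend, a replicate block and each array left out. Labels name no separate donors, so p-values rest on the spread between pools. Of their 10.8 degrees of freedom, 8.8 are limma's prior, borrowed from all tested probe sets. The standard errors and intervals share this.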

Additional observations from a re-analysis of the deposited data

How the results depend on the processing

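Under all 12 alternatives 0 pathway probe sets passed limma's adjusted p, the lowest being 0.829, with the replicate block. Of 58 single pathway differences recomputed, 54 kept their direction and 4 turned their sign, all with an array left out. The filter, variance trend, replicate block and date setting cannot alter these differences, as no tested pathway probe set held a date cell. Their direction was thus fixed in advance under those settings. It could change only with the offset, quantile normalization or an array left out. With each array left out in turn, the differences ranged from -0.16 to 0.26 for Eda 93393_at, from -0.25 to 0.089 for Nfkbia 101554_at, from -0.14 to 0.49 for Nfkbia 104149_at, from -0.53 to 0.038 for Nfkbib and from -0.20 to -0.03 for Rela, and the median of the pathway from -0.20 to 0.01. Over all tested probe sets, the 4 calls (2 higher, 2 lower) became 3 (2 higher, 1 lower) with quantile normalization, 2 without the filter, where more probe sets are tested, 2 to 5 with an array left out, and 32 with the replicate block. In the fit with the replicate block the prior degrees of freedom were infinite, against 8.8 in the main fit. The variance used for a probe set there came from the trend over all tested probe sets and not from its own arrays. The cause of the rise to 32 was not tested. Same-numbered arrays deviated together across probe sets (correlation 0.38), but the labels do not state any pairing by number, and with 2 pairs this is only a hint. Signals without detection calls leave it unknown which of the dim probe sets were above background.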
